A study of Mus musculus with 10 samples.

Results

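The genes of prostaglandin synthesis, breakdown and signalling were examined in the mouse hippocampus after status epilepticus (SE). Rows of the gene table were taken by symbol for *Pla2g4a*, *Ptgs1*, *Ptgs2*, *Ptges*, *Ptges2*, *Ptges3*, *Ptgds*, *Hpgd* and *Ptger4*, and all 9 were found among the 15900 genes listed. All 9 passed the filter on low values. Transcripts were measured by cap analysis of gene expression (CAGE), which sequences a tag from the capped start of each RNA. Values are in CPM, tag counts of a gene put on a common library total. Since each transcript gives a tag only at its start, CPM levels of different genes can be compared without correction for transcript length.

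The libraries came from hippocampi of male ICR mice aged 9 to 10 weeks, and formed 5 groups of 2. Pre-SE mice are labelled untreated, and according to the methods the controls received saline in place of pilocarpine (PILO). In the other 4 groups PILO was given after methyl scopolamine, and diazepam ended the SE. SE 6 h and SE 2 days mice were sampled at those times without levetiracetam (LEV), an antiepileptic drug that binds the synaptic vesicle protein SV2A. SE + LEV 6 h mice had received oral LEV 1 time and SE + LEV 2 days mice 5 times. PILO and the seizures themselves are shared by all 4 SE groups and cannot be told apart in a comparison with pre-SE mice. Whether the controls also received methyl scopolamine or diazepam is not clear from the methods. If they did not, these drugs cannot be told apart from PILO and the seizures either. No group received LEV without SE.

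Prostaglandins are lipid mediators made from arachidonic acid. Cytosolic phospholipase A2 (*Pla2g4a*) frees arachidonic acid from membranes, and the cyclooxygenases COX-1 (*Ptgs1*) and COX-2 (*Ptgs2*) turn it into prostaglandin H2. Terminal synthases make prostaglandin E2 (*Ptges*, *Ptges2*, *Ptges3*) or prostaglandin D2 (*Ptgds*). The enzyme 15-hydroxyprostaglandin dehydrogenase (*Hpgd*) inactivates prostaglandin E2, and *Ptger4* encodes the prostaglandin E2 receptor EP4. In brain, COX-2 is made by excitatory neurons and is a known activity-dependent gene, whereas COX-1 is found mainly in microglia.

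In mm9, the build of the deposited table, *Ptgs2* lies on the plus strand of chromosome 1 (151947254 to 151955140, 10 exons) and *Pla2g4a* on the minus strand of the same chromosome (151676748 to 151808420), 138.8 kb away. *Ptgds* (25322229 to 25325566, minus strand), *Ptges* (30744991 to 30785383, minus strand), *Ptges2* (32251416 to 32258259, plus strand) and *Ptgs1* (36085946 to 36107792, plus strand) lie on chromosome 2. *Hpgd* lies on chromosome 8 (58773349 to 58799843, plus strand), *Ptges3* on chromosome 10 (127496010 to 127514328, plus strand) and *Ptger4* on chromosome 15 (5156661 to 5194187, minus strand). *Ptges3* overlaps *Baz2a* and *Ptges* overlaps *Gm13400* on their own strands, while *Ptger4* overlaps *Ttc33* and *Gm15937* and *Pla2g4a* overlaps *n-R5s219* on the other strand. Whether strand was used when tags were given to genes is not stated in the sources used here, so values of these 4 genes may include tags of their neighbours.

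The start regions of *Ptgs2*, *Ptgs1*, *Hpgd* and *Ptger4* are shown, since these genes differed from pre-SE mice, and CAGE tags count starts of transcription. Each RefSeq window (GRCm38.p6) holds 250 bases before and 50 bases from the annotated start, is written in the direction of transcription, and matched the mm9 genome exactly at 1 place on its chromosome. Those places are chr1:151946911-151947210 (plus strand) for *Ptgs2*, chr2:36085696-36085995 (plus strand) for *Ptgs1*, chr8:58773099-58773398 (plus strand) for *Hpgd* and chr15:5194138-5194437 (minus strand) for *Ptger4*. Capitals mark matches to the motifs searched.
Ptgs2: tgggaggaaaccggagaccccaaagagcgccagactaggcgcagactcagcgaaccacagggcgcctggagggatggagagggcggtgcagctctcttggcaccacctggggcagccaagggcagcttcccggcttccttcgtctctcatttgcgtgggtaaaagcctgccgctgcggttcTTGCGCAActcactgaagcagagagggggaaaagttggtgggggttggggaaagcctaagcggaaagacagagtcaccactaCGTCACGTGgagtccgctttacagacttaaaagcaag
Ptgs1: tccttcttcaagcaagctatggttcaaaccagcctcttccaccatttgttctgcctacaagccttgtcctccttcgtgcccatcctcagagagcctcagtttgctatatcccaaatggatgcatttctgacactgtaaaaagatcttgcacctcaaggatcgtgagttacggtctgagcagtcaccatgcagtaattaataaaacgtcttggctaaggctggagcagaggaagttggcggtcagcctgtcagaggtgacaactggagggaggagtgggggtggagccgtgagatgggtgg
Hpgd: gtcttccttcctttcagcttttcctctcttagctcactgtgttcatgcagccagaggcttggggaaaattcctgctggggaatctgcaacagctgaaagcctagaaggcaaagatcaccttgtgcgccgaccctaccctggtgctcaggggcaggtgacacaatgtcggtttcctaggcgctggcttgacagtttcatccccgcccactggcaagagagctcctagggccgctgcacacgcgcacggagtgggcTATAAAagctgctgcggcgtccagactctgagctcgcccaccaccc
Ptger4: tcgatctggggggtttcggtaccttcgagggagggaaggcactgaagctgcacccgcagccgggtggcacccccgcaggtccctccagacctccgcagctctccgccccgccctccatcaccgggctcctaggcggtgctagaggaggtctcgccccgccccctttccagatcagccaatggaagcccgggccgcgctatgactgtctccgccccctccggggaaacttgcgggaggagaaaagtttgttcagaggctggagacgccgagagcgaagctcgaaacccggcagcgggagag

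The motifs were the full cAMP response element (TGACGTCA), its core (TGACG), the AP-1 site (TGANTCA), the E-box (CACGTG), the C/EBP site (TTGCNNAA), the TATA box (TATAAA) and the NF-kB site, each on both strands. The *Ptgs2* window held a C/EBP match from 69 to 62 bases before the RefSeq start, a core of the cAMP response element on the minus strand from base 14 to base 18 after it, and an E-box from base 17 to base 22, so the last 2 matches overlap. This RefSeq start lies 93 bases before the GENCODE gene start given above (151947254). All of these *Ptgs2* matches therefore lie before the GENCODE start. Over all 32851 mouse windows, 10.8% held a C/EBP match, 20.8% a core of the cAMP response element and 7.2% an E-box. The *Hpgd* window held a TATA box match from base 5 to base 10, as did 13.6% of all windows. In the *Ptgs1* and *Ptger4* windows none of the letters searched were found. The *Ptger4* window held 25 CpG and 67.0% G and C, *Ptgs2* held 16 CpG and 59.3%, *Hpgd* 12 CpG and 58.0%, and *Ptgs1* 6 CpG and 50.7%, while the medians of all windows were 7 CpG and 52.7%.

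Depth, estimated from the smallest steps of the values, ranged from 10540000 to 51710000 tags, at which 3 tags (the limit of detection used here) equal 0.058 to 0.285 CPM. The lowest value of any of the 9 genes, 0.45 CPM for *Ptger4* in pre-SE replicate 1, equals 13 tags. Differences were tested by a single limma fit to all 10 libraries, using log2(CPM + 0.1), and logFC is the difference of group means on that scale. Genes were called at a Benjamini-Hochberg adjusted p of at most 0.05 over the 15851 genes tested. An exact permutation test of 2 mice against 2 cannot give a p below 0.333, and limma instead draws its error from all groups and genes together.

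Before SE the 9 genes covered a wide range of levels. *Ptgds* was the highest with a mean of 918.25 CPM, followed by *Ptges3* (214.83), *Ptges2* (45.79), *Ptgs2* (20.15), *Ptgs1* (11.39), *Hpgd* (3.9), *Pla2g4a* (1.86), *Ptges* (1.67) and *Ptger4* (0.71). Of neighbours in this order, *Pla2g4a* and *Ptges* overlapped between their mice, and the other neighbours did not.

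**Figure D1:**
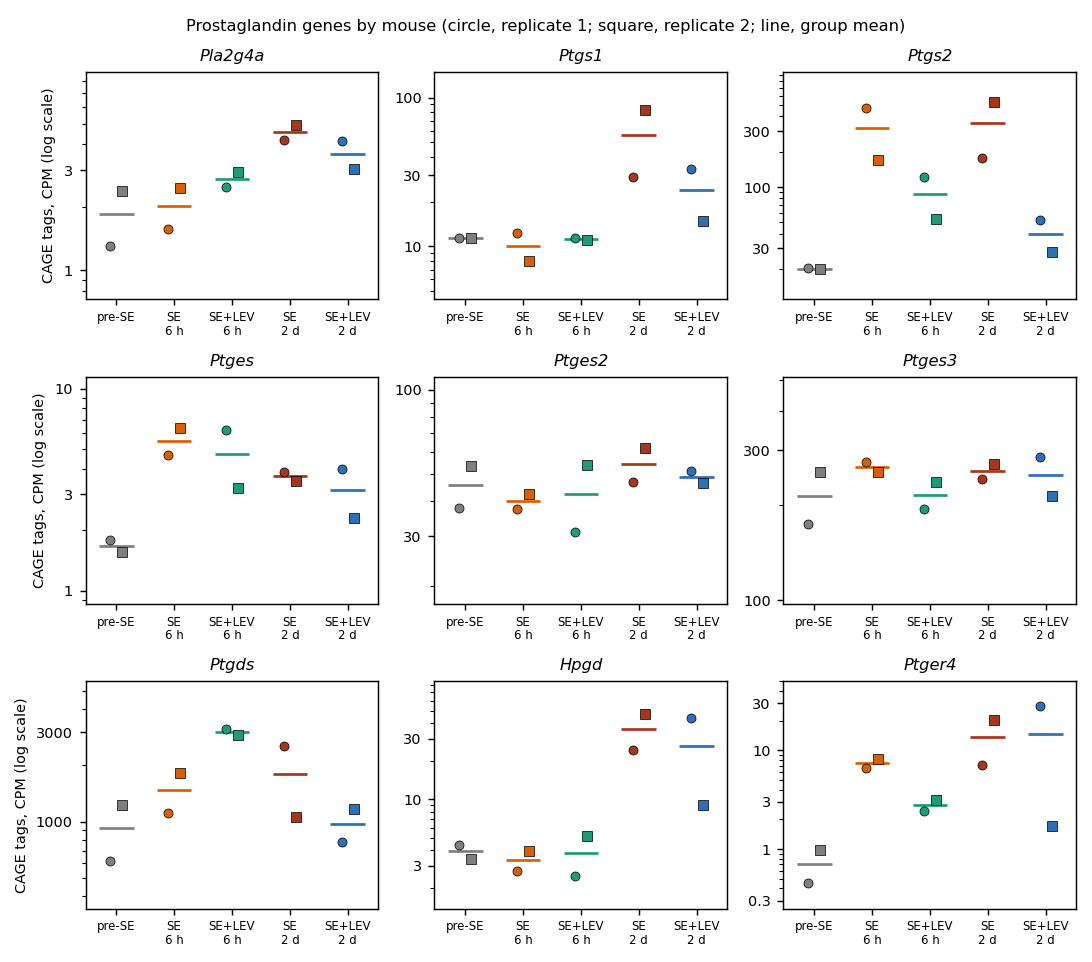
CPM of each gene (vertical axis, log scale) in each mouse of the 5 groups (horizontal axis), with circles for replicate 1, squares for replicate 2 and a line at the group mean. *Ptgs2* sits at 20.35 and 19.94 CPM before SE and above 170 CPM in all 4 SE mice without LEV, while *Ptges2* and *Ptges3* stay within narrow ranges.

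In these CAGE libraries, *Ptgs2* rose strongly at both times after SE. The paper that reported these data also measured *Ptgs2* in hippocampus by real-time PCR. There it rose within hours and was low again by 2 days, unlike the 2 days values here. It was at 20.35 and 19.94 CPM before SE, at 467.86 and 170.27 CPM at 6 h after SE, and at 175.83 and 530.78 CPM at 2 days after SE. Every SE mouse without LEV was above both pre-SE mice, and the SE mice of each time differed from each other by more than the means of the times did. The logFC against pre-SE was 3.80 ± 0.61 (SE) at 6 h (13.9-fold, adjusted p = 0.010) and 3.92 ± 0.61 at 2 days (15.1-fold, adjusted p = 0.0051). The logFC between the times was 0.11 (95% interval −1.25 to 1.48, adjusted p = 0.93). The 6 h call was lost without pre-SE replicate 1 (adjusted p = 0.059), pre-SE replicate 2 (0.057) or SE 6 h replicate 1 (0.072), and the 2 days call without SE 2 days replicate 2 (0.061), with logFC between 3.07 and 4.53 at 6 h and between 3.12 and 4.71 at 2 days.

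In mice given LEV, *Ptgs2* was lower than in SE mice at both times, without passing the adjusted threshold. The paper saw no effect of LEV on *Ptgs2* by real-time PCR. Its PCR series included 2 days but not 6 h, was normalised to *Actb* and had more samples in each group. The values were 122.41 and 53.32 CPM at 6 h with LEV and 52.47 and 27.72 CPM at 2 days with LEV. Both LEV mice were below both SE mice at each time, and all 4 were above both pre-SE mice. Against SE mice the logFC was −1.80 ± 0.61 at 6 h (3.49-fold lower, unadjusted p = 0.015, adjusted p = 0.85) and −3.00 ± 0.61 at 2 days (7.99-fold lower, 95% interval −4.36 to −1.63, unadjusted p = 0.00061, adjusted p = 1). At 2 days its unadjusted p ranked 3 among the 15851 genes and its logFC ranked 10 from the lowest. Across the alternatives run, the adjusted p stayed between 0.61 and 1 at 6 h and between 0.26 and 1 at 2 days. Against pre-SE mice, the logFC of SE + LEV 6 h mice was 2.00 (adjusted p = 0.28).

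The ratio of *Ptgs2* to *Ptgs1* within a library does not depend on how libraries are scaled. It was 1.78 and 1.76 before SE, 38.19 and 21.42 at 6 h after SE, 10.78 and 4.80 at 6 h with LEV, 5.99 and 6.42 at 2 days after SE, and 1.58 and 1.86 at 2 days with LEV. The SE + LEV 2 days mice enclosed the pre-SE values, and both SE groups without LEV lay above the LEV group of the same time. In SE + LEV 2 days mice both genes were above both pre-SE mice, without a call. The means were 40.1 against 20.15 CPM for *Ptgs2* and 24.08 against 11.39 CPM for *Ptgs1*. A ratio at pre-SE values is thus not a *Ptgs2* level at pre-SE values. The ratio is given as a description, with no test.

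*Ptgs1*, the other cyclooxygenase, rose at 2 days, with no call at 6 h. It was at 11.45 and 11.33 CPM before SE, 12.25 and 7.95 CPM at 6 h after SE, and 29.34 and 82.72 CPM at 2 days after SE. Both SE 2 days mice were above every pre-SE and 6 h mouse. The logFC of SE 2 days mice was 2.10 ± 0.50 against pre-SE (4.30-fold, adjusted p = 0.036) and 2.31 ± 0.50 against SE 6 h (4.95-fold, adjusted p = 0.031), whereas SE 6 h against pre-SE gave −0.20 ± 0.50 (adjusted p = 0.87). SE + LEV 6 h mice had 11.36 and 11.1 CPM and SE + LEV 2 days mice 33.24 and 14.91 CPM. At 2 days the LEV mice overlapped the SE mice (logFC −1.14 ± 0.50, unadjusted p = 0.044, adjusted p = 1).

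The *Ptgs1* calls moved with single mice. The call against pre-SE was lost without pre-SE replicate 1 (adjusted p = 0.16), pre-SE replicate 2 (0.13), SE 2 days replicate 2 (0.32, logFC 1.36) or any of the 4 mice of the 6 h groups (0.05 to 0.059), and the call against SE 6 h without SE 6 h replicate 1 (0.092) or replicate 2 (0.17), SE 2 days replicate 2 (0.18) or either SE + LEV 6 h mouse (0.052). The replicate number as a block ended both calls (0.058 and 0.052), and the call against pre-SE was also lost without the mean-variance trend (0.057) and in a fit of the groups compared only (0.051). The summed level of 8 microglial markers, all listed and none at 0, ran from 372 to 439.6 CPM before SE, 273 to 292.1 at 6 h after SE, 281.2 to 295.9 at 6 h with LEV, 853.4 to 998.9 at 2 days after SE and 925.5 to 1140.8 at 2 days with LEV, and its part in the *Ptgs1* result was not tested. In these bulk samples, fewer cells of a type and less RNA per cell cannot be told apart.

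*Pla2g4a*, which supplies arachidonic acid, was low throughout and passed the threshold in no comparison. It was at 1.31 and 2.4 CPM before SE, 1.57 and 2.47 at 6 h after SE, 2.49 and 2.94 at 6 h with LEV, 4.2 and 4.92 at 2 days after SE, and 4.16 and 3.04 at 2 days with LEV. Both 2 days groups lay above both pre-SE mice. The logFC of SE 2 days mice was 1.31 ± 0.41 against pre-SE (adjusted p = 0.10) and 1.17 ± 0.41 against SE 6 h (adjusted p = 0.15). SE + LEV 2 days mice gave 0.96 against pre-SE (unadjusted p = 0.040, adjusted p = 0.41).

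Among the prostaglandin E2 synthases, the highest estimates against pre-SE were those of *Ptges*, which encodes the inducible membrane enzyme mPGES-1 that works with COX-2. It was at 1.79 and 1.55 CPM before SE and at 2.3 to 6.37 CPM in all 8 SE mice, so no SE mouse overlapped the pre-SE mice. The single values were 4.68 and 6.37 CPM at 6 h after SE, 6.25 and 3.23 at 6 h with LEV, 3.86 and 3.49 at 2 days after SE, and 4.02 and 2.3 at 2 days with LEV. The logFC against pre-SE was 1.65 ± 0.42 at 6 h (3.15-fold, adjusted p = 0.073) and 1.09 ± 0.42 at 2 days (2.14-fold, adjusted p = 0.18). SE + LEV 6 h mice gave 1.38 (unadjusted p = 0.0084, adjusted p = 0.28). No comparison called it. LEV mice overlapped SE mice at 6 h (logFC −0.27, 95% interval −1.22 to 0.67) and at 2 days (−0.26, −1.20 to 0.68).

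*Ptges2* and *Ptges3*, which encode constitutive prostaglandin E2 synthases (*Ptges3* also encodes the HSP90 co-chaperone p23), showed small differences. *Ptges2* was at 38.01 and 53.57 CPM before SE, 37.62 and 42.48 at 6 h after SE, 31.07 and 53.98 at 6 h with LEV, 46.72 and 61.85 at 2 days after SE, and 51.46 and 46.33 at 2 days with LEV. *Ptges3* was at 175.13 and 254.53 CPM before SE, 274.87 and 254.96 at 6 h after SE, 195.17 and 237.75 at 6 h with LEV, 242.57 and 270.24 at 2 days after SE, and 285.28 and 214.03 at 2 days with LEV. The logFC of *Ptges2* against pre-SE was −0.17 (95% interval −0.85 to 0.50) at 6 h and 0.25 (−0.42 to 0.93) at 2 days, and that of *Ptges3* was 0.33 (−0.23 to 0.89) and 0.28 (−0.28 to 0.84). *Ptges* made up 0.50% to 0.83% of the summed CPM of the 3 genes in pre-SE mice and 0.88% to 2.69% in SE mice, so *Ptges2* and *Ptges3* made up nearly all of the prostaglandin E2 synthase tags in every library.

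*Ptgds*, the prostaglandin D2 synthase secreted into cerebrospinal fluid, was the highest of the 9 genes in every library. It was at 618.05 and 1218.45 CPM before SE, 1107.99 and 1822.25 at 6 h after SE, 3115.75 and 2896.39 at 6 h with LEV, 2537.34 and 1052.39 at 2 days after SE, and 776.28 and 1166.84 at 2 days with LEV. Both SE + LEV 6 h mice were above the other 8 mice. Their logFC was 1.08 ± 0.47 against SE 6 h (2.11-fold, unadjusted p = 0.046, adjusted p = 1) and 1.79 against pre-SE (3.46-fold, unadjusted p = 0.0035, adjusted p = 0.21). SE + LEV 2 days against SE + LEV 6 h gave −1.66 (unadjusted p = 0.0056, adjusted p = 0.14). The LEV effect at 2 days minus that at 6 h was −1.86 ± 0.67 (unadjusted p = 0.019, adjusted p = 1), so no *Ptgds* difference passed the adjusted threshold.

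Meninges, choroid plexus and oligodendrocytes are known sites of *Ptgds* expression. The summed level of 8 meningeal and fibroblast markers, all listed and none at 0 in a group, was 77.8 to 199.7 CPM before SE, 99.8 to 138.6 at 6 h after SE, 150.9 to 201.4 at 6 h with LEV, 148.4 to 184.8 at 2 days after SE and 134.6 to 152.7 at 2 days with LEV. That of choroid plexus markers (5 of 9 listed, none at 0 in a group) ran from 8.9 to 4030.8 CPM between SE 6 h mice and from 12.6 to 1712.5 CPM between pre-SE mice. It ran from 41.3 to 875.1 at 6 h with LEV, 23.9 to 68.7 at 2 days after SE and 27.1 to 1509 at 2 days with LEV. Where this sum was high it was nearly all *Ttr* (3935.71 of 4030.8 CPM in SE 6 h replicate 2). The mouse with more choroid plexus marker tags had more *Ptgds* in 4 of the 5 groups, SE + LEV 2 days being the exception. The meningeal and fibroblast list gave the same count with the same exception. Oligodendrocyte markers (7 listed, none at 0) summed to 5166.5 to 5674 CPM before SE, 3562.6 to 6773.9 at 6 h after SE, 4384.1 to 5794.1 at 6 h with LEV, 1949.2 to 3130 at 2 days after SE and 3667.7 to 4907.8 at 2 days with LEV. The mouse with more of them had more *Ptgds* in 4 of the 5 groups, SE 2 days being the exception. Between 2 mice, unrelated levels take the same order as often as not, so these counts are descriptions only. The part of the 3 lists in the *Ptgds* values was not tested.

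*Hpgd*, the enzyme that inactivates prostaglandin E2, rose at 2 days, with no call at 6 h. It was at 4.41 and 3.4 CPM before SE, 2.73 and 3.91 at 6 h after SE, 2.49 and 5.12 at 6 h with LEV, 24.55 and 47.33 at 2 days after SE, and 43.6 and 8.99 at 2 days with LEV. All 4 mice at 2 days were above all 6 others, and the SE + LEV 2 days mice differed most from each other. The logFC of SE 2 days mice was 3.11 ± 0.66 against pre-SE (8.61-fold, adjusted p = 0.023) and 3.34 ± 0.66 against SE 6 h (10.2-fold, adjusted p = 0.021). The call against pre-SE was lost without pre-SE replicate 1 (adjusted p = 0.092), pre-SE replicate 2 (0.11) or SE 2 days replicate 2 (0.23). The call against SE 6 h was lost when any mouse of the groups compared was left out (SE 6 h replicate 1, 0.13, and replicate 2, 0.086; SE 2 days replicate 1, 0.073, and replicate 2, 0.15).

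*Ptger4*, the receptor EP4 that raises cyclic AMP, rose in SE 2 days mice. It was at 0.45 and 0.97 CPM before SE, 6.67 and 8.15 at 6 h after SE, 2.46 and 3.13 at 6 h with LEV, 7.12 and 20.2 at 2 days after SE, and 27.89 and 1.73 at 2 days with LEV. All 8 SE mice exceeded both pre-SE mice. Against pre-SE, the logFC was 3.98 ± 1.01 at 2 days (15.8-fold, adjusted p = 0.048) and 3.28 ± 1.01 at 6 h (9.74-fold, adjusted p = 0.13). At 6 h both LEV mice were below both SE mice (logFC −1.38, 95% interval −3.62 to 0.86, adjusted p = 1), and at 2 days the LEV mice lay on either side of both SE mice (−0.76, −3.00 to 1.48).

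The *Ptger4* calls also moved with single mice. The 2 days call was lost without pre-SE replicate 1 (adjusted p = 0.26) or replicate 2 (0.10), SE 2 days replicate 1 (0.069) or replicate 2 (0.38), or any mouse of the 6 h groups (0.073 to 0.076). It was also lost with a pseudocount of 0.5 (0.068) or 1 (0.093), with median-of-ratios rescaling (0.054), with the replicate number as a block (0.076) and without the mean-variance trend (0.073), so 13 of 19 alternatives ended it. Conversely, SE 6 h against pre-SE was called without SE + LEV 2 days replicate 1 (0.0092) or replicate 2 (0.0082) and in a fit of the groups compared only (0.015).

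*Hpgd* and *Ptger4* had the largest contrasts on the log scale between the SE + LEV 2 days mice. Replicate 1 was in the range of SE 2 days mice or above it for both genes, and replicate 2 was below both SE 2 days mice. The same order held for *Ptgs1* (33.24 and 14.91 CPM), *Ptges* (4.02 and 2.3), *Ptges2* (51.46 and 46.33) and *Ptges3* (285.28 and 214.03), so it was not particular to *Hpgd* and *Ptger4*. Over the group, the logFC against pre-SE was 2.33 for *Hpgd* (adjusted p = 0.13) and 3.22 for *Ptger4* (adjusted p = 0.18). Without replicate 2 it was 3.46 for *Hpgd* and 5.19 for *Ptger4*, whereas without replicate 1 it was 1.19 and 1.25. Against SE + LEV 6 h, *Hpgd* gave 2.44 (adjusted p = 0.12), 3.57 without replicate 2 (adjusted p = 0.0078) and 1.31 without replicate 1 (adjusted p = 0.68). The summed level of monocyte and macrophage markers (5 of 7 listed and none at 0 in a group, with *Ccr2* and *Ly6c2* not among the listed genes) was 75.8 CPM in replicate 1 and 13.3 CPM in replicate 2. The list sum was 2.6 to 4.8 CPM before SE, 9.5 to 12.8 at 6 h after SE, 9.1 to 9.7 at 6 h with LEV and 53.3 to 65.6 at 2 days after SE. Most of the sum at 2 days came from 1 gene, the scavenger receptor *Msr1*, with 37.78 and 53.25 CPM at 2 days after SE and 56.42 and 3.45 CPM at 2 days with LEV. The other 4 markers summed to 15.6 and 12.3 CPM and to 19.3 and 9.9 CPM in those mice, and to 2.6 to 8.2 CPM in the 6 others. The part of the list in the *Hpgd* and *Ptger4* results was not tested.

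**Figure D2:**
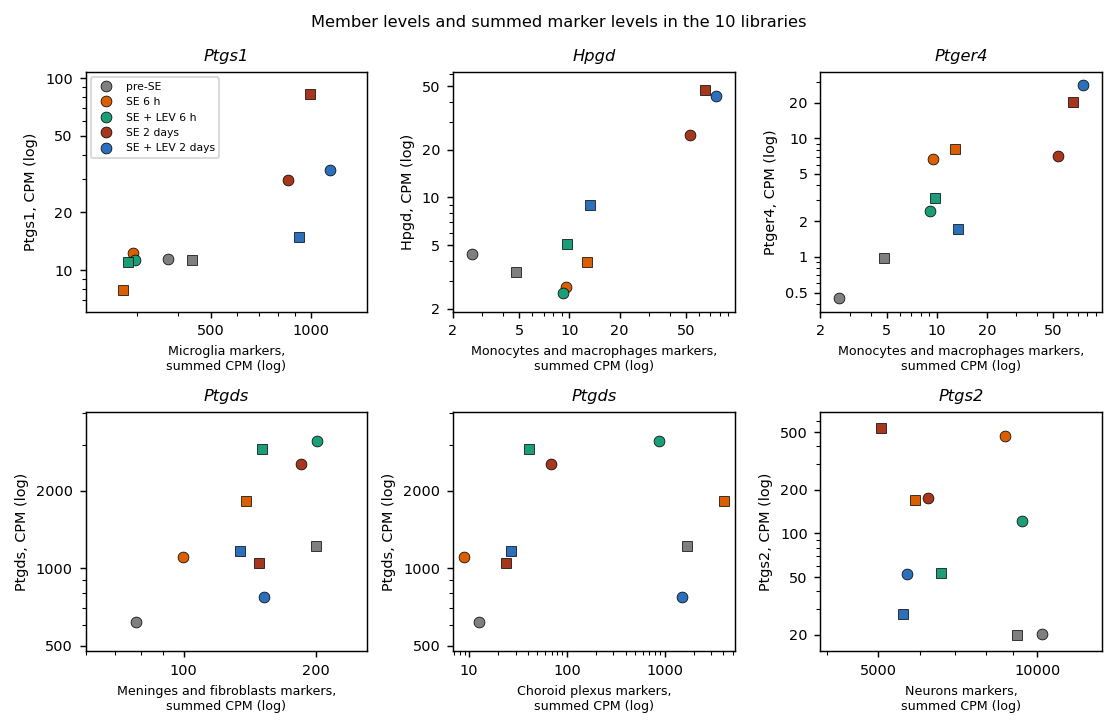
Levels of *Ptgs1*, *Hpgd*, *Ptger4*, *Ptgds* and *Ptgs2* (vertical axes, CPM, log scale) against the summed CPM of marker genes of a cell type (horizontal axes, log scale) in the 10 libraries, coloured by group, with circles for replicate 1 and squares for replicate 2. The 3 libraries with the most monocyte and macrophage marker tags (53.3, 65.6 and 75.8 CPM, mostly of *Msr1*) are also the 3 with the most *Hpgd*. The top pair of them are the pair with the most *Ptger4*, an order that rests on *Msr1*. The other 4 markers were highest in SE + LEV 2 days replicate 1 (19.3 CPM) and SE 2 days replicate 1 (15.6 CPM). The latter mouse had 7.12 CPM of *Ptger4*, less than SE 6 h replicate 2 (8.15 CPM).

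Counted over the 9 genes, SE 6 h against pre-SE called 1 gene higher and 0 lower, against 2.76% of all genes called higher and 0.202% called lower. Values at 6 h lay wholly above those before SE for 4 of the 9 (18.6% of all genes) and wholly below for 0 (31.3%). For *Ptges3*, which is among the 4, this was a near tie, with 254.96 against 254.53 CPM in the nearest mice. The median logFC of the 9 was 0.33, and that of all genes tested was −0.13. The count was 0 without pre-SE replicate 1, pre-SE replicate 2 or SE 6 h replicate 1, and 2 without either SE + LEV 2 days mouse.

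SE 2 days against pre-SE called 4 of the 9 higher and 0 lower, against 5.07% and 0.593% of all genes. The 4 were *Ptgs1*, *Ptgs2*, *Hpgd* and *Ptger4*. All 9 estimates were above 0, with a median logFC of 1.31 against −0.03 for all genes tested, and both SE mice exceeded both pre-SE mice for 6 of the 9 (26.3% of all genes) and were below them for 0 (25.6%). The number called was 0 without SE 2 days replicate 2, 1 without either pre-SE mouse and 2 without any mouse of the 6 h groups, and the fits without the mean-variance trend or with the replicate block gave 2.

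SE 2 days against SE 6 h called *Ptgs1* and *Hpgd* higher and 0 lower, against 3.14% and 1.11% of all genes. The median logFC was 0.43 against 0.09 for all genes. The count was 0 without SE 6 h replicate 1, SE 6 h replicate 2 or SE 2 days replicate 2, and 1 without SE 2 days replicate 1 or either SE + LEV 6 h mouse. The 2 SE groups are each compared with the same pre-SE mice, so the counts against pre-SE at 6 h and 2 days are not independent.

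SE + LEV 6 h against SE 6 h called 0 of the 9 by limma, against 0 of all genes called higher and 0.0126% called lower. At an unadjusted p under 0.05, *Ptgds* was higher and *Ptgs2* lower, against 1.14% of all genes higher and 3.37% lower. Both LEV mice were above both SE mice for *Ptgds* and *Pla2g4a* (16.1% of all genes), and both were below for *Ptgs2*, *Ptges3* and *Ptger4* (13.4%). For *Pla2g4a* this was a near tie, with 2.49 against 2.47 CPM in the nearest mice. The median logFC was 0.03 against 0.04 for all genes.

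SE + LEV 2 days against SE 2 days also called 0 of the 9 by limma, and 0% of all genes in either direction. At an unadjusted p under 0.05, *Ptgs2* and *Ptgs1* were lower and 0 of the 9 higher, against 1.37% of all genes lower and 1.3% higher. All 9 estimates were below 0, several of them by little, with a median logFC of −0.76 against 0.04 for all genes. The median is the value of *Ptger4*, and 5 estimates changed sign without SE + LEV 2 days replicate 2 (*Ptger4*, *Hpgd*, *Ptges* and *Ptges3*) or without SE 2 days replicate 2 (*Ptges2* and *Ptges3*). Both LEV mice were below both SE mice for *Ptgs2* and *Pla2g4a* (12.2% of all genes) and above for 0 of the 9 (15.2%). For *Pla2g4a* this was a near tie, with 4.16 against 4.2 CPM in the nearest mice.

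**Figure D3:**
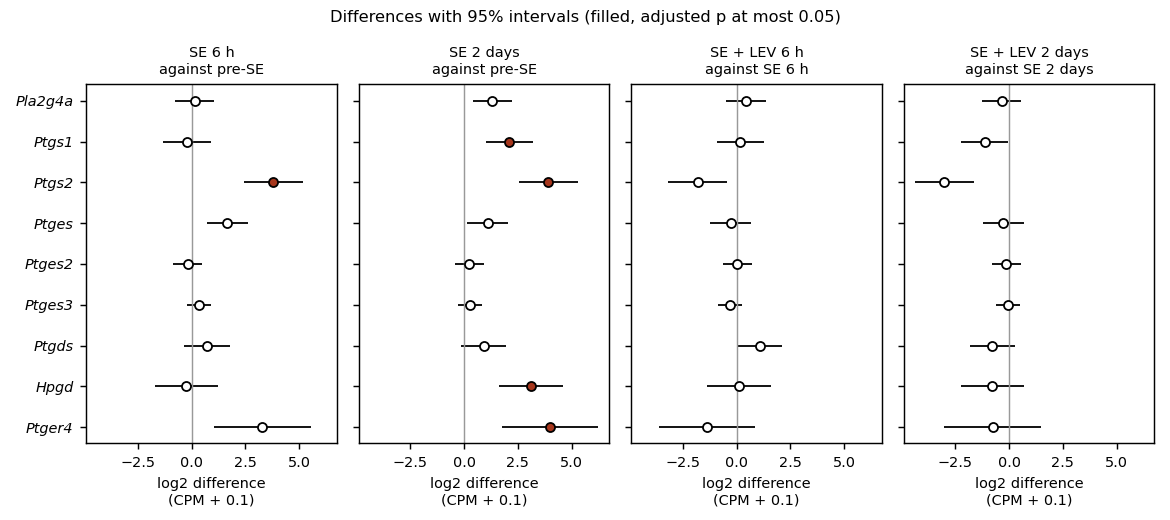
Difference of group means on the log2(CPM + 0.1) scale (horizontal axes) with 95% intervals for the 9 genes in 4 comparisons, filled where the adjusted p was at most 0.05. *Ptgs2* is called at both times after SE, *Ptgs1*, *Hpgd* and *Ptger4* at 2 days, and no gene in the LEV comparisons, where *Ptgs2* at 2 days has the lowest estimate (−3.00).

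SE + LEV mice against pre-SE called 0 of the 9 at 6 h, against 0.315% of all genes called higher and 0.00631% called lower, with 3 of the 9 higher at an unadjusted p under 0.05 (5.49% of all genes). At 2 days 0 were called as well, against 2.83% of all genes called higher and 0.0189% called lower, with 3 of the 9 higher at an unadjusted p under 0.05 (8.85%). SE + LEV 2 days against SE + LEV 6 h called 0 of the 9, against 2.06% of all genes called higher and 0.0757% called lower. At an unadjusted p under 0.05, *Hpgd* was higher (9.15% of all genes) and *Ptgds* lower (2.67%). The interaction test, the LEV effect at 2 days minus that at 6 h, called 0 of the 9 and 0% of all genes in either direction.

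Of 59 further genes of the pathway, grouped by role, 36 were listed and tested. SE 6 h against pre-SE called 2 of them higher (2.76% of all genes) and 0 lower (0.202%), with a median logFC of −0.22 against −0.13 for all genes. SE 2 days against pre-SE called 4 higher (5.07%) and 0 lower (0.593%), with a median of −0.09 against −0.03. SE + LEV 6 h against pre-SE called 0 of them, against 0.315% of all genes called higher and 0.00631% called lower. SE + LEV 2 days against pre-SE called 4 higher (2.83%) and 0 lower (0.0189%). Neither LEV comparison with SE mice called any of the 36. At an unadjusted p under 0.05, 1 was higher (1.14% of all genes) and 1 lower (3.37%) at 6 h, and 1 was higher (1.3%) and 0 lower (1.37%) at 2 days.

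Upstream enzymes that free fatty acids (15 of 23 listed) had 0 calls against pre-SE at either time. At 6 h the logFC ran from −1.31 (*Pla2g4b*) to 0.70 (*Pla2g3*), and at 2 days from −1.22 (*Pla2g5*) to 0.92 (*Pla2g3*). *Pla2g7*, which encodes the platelet-activating factor acetylhydrolase, fell between the times. It was at 172.24 and 147.38 CPM at 6 h after SE and 67.63 and 83.15 CPM at 2 days after SE (logFC −1.09 ± 0.24, adjusted p = 0.037), and this call was lost in 11 of 19 alternatives, among them leaving out either SE 6 h mouse (adjusted p = 0.17 and 0.11), either SE 2 days mouse (0.20 and 0.10), or either pre-SE or SE + LEV 6 h mouse (0.051 to 0.057).

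Of 8 other prostanoid synthases, all listed, 2 rose at 2 days. *Hpgds*, the haematopoietic prostaglandin D synthase of microglia and mast cells, was at 3.55 and 2.32 CPM before SE, 2.57 and 3.36 at 6 h after SE, 12.97 and 11.56 at 2 days after SE, and 16.28 and 13.88 at 2 days with LEV. The 2 days groups did not overlap the others, and the logFC of SE 2 days against pre-SE was 2.05 ± 0.34 (4.15-fold, adjusted p = 0.0072). *Tbxas1*, the thromboxane A synthase, was at 0.9 and 0.7 CPM before SE, 1.09 and 1.92 at 6 h after SE, 4.49 and 4.25 at 2 days after SE, and 5.33 and 3.94 at 2 days with LEV (logFC 2.32 ± 0.41, 5-fold, adjusted p = 0.0094). Its 5′ end lies within *Hipk2* on the other strand. At 6 h the list ran from −0.79 (*Cbr1*) to 0.79 (*Tbxas1*), and at 2 days the lowest estimate was −1.03 (*Akr1c18*).

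*Hpgds* and *Tbxas1* were also called in SE + LEV 2 days mice against pre-SE, with logFC 2.35 (adjusted p = 0.0066) and 2.39 (adjusted p = 0.012). The SE 2 days calls were lost without SE 2 days replicate 2 (0.057 for *Hpgds*, 0.077 for *Tbxas1*) or pre-SE replicate 2 (0.066 and 0.071), and that of *Tbxas1* also without pre-SE replicate 1 (0.052). The SE + LEV 2 days calls were lost without SE + LEV 2 days replicate 1 (0.065 and 0.12) or pre-SE replicate 2 (0.060 and 0.098), and that of *Tbxas1* also without pre-SE replicate 1 (0.070). Both were lost in a fit of the groups compared only (0.073 and 0.079).

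Of 9 other prostanoid receptors only *Ptger1* and *Ptger3*, the receptors EP1 and EP3, were listed. *Ptger1* was at 0.58 and 0.62 CPM at 6 h after SE (18 and 9 tags) and at 0.07 CPM or less in the other 8 mice. Summed over mice, its share of tags was 47.6 times that of pre-SE mice (27 tags against 1, 95% counting interval 7.8 to 1947.8) and 12 times that of SE + LEV 6 h mice (27 against 2, 3.0 to 103.8). The interval covers counting error only, with the mice of a group pooled, and the tags were estimated from steps in the CPM values. *Ptger1* was at least 8.7-fold higher than in SE 2 days mice, where 0 tags were found and 3 over the group were taken as the limit. limma called it higher in SE 6 h against pre-SE (adjusted p = 0.014) and lower in SE 2 days against SE 6 h (adjusted p = 0.0096), and each call was lost when any 1 mouse of the groups compared was left out (adjusted p from 0.057 to 0.12) and with a pseudocount of 0.01 (0.093 and 0.051). *Ptger3* had a logFC of 0.46 at 6 h and 0.26 at 2 days.

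Transport and breakdown genes (4 of 5 listed) had 0 calls, with logFC from −0.65 (*Zadh2*) to −0.03 (*Abcc4*) at 6 h and from −0.47 (*Zadh2*) to 1.01 (*Ptgr1*) at 2 days. Among breakdown genes, *Hpgd* had the only call.

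The lipoxygenase branch, which takes arachidonic acid to leukotrienes and other products, had 7 of 14 genes listed. *Aloxe3*, an epidermal lipoxygenase, rose at 6 h, from 2.86 and 1.95 CPM before SE to 13.57 and 15.62 CPM at 6 h after SE (logFC 2.57 ± 0.49, 5.95-fold, adjusted p = 0.021), a call lost when any 1 of those 4 mice was left out (adjusted p 0.078 to 0.15). At 2 days *Alox5*, the 5-lipoxygenase, was at 1.53 and 2.63 CPM against 0.38 and 0.56 CPM before SE (logFC 1.91 ± 0.45, adjusted p = 0.035). Its activating protein *Alox5ap* was at 8.56 and 11.13 CPM against 3.24 and 2.48 CPM (logFC 1.75 ± 0.33, adjusted p = 0.014). SE + LEV 2 days mice had 2.83 and 2.22 CPM of *Alox5* and 12.76 and 13.84 CPM of *Alox5ap*, all above the pre-SE mice. Both genes were also called higher in SE + LEV 2 days against pre-SE. That call was lost in 5 of 19 alternatives for *Alox5* and in 3 of 19 for *Alox5ap*. The SE 2 days calls were lost without pre-SE replicate 1 (0.25 for *Alox5*, 0.062 for *Alox5ap*), pre-SE replicate 2 (0.095 and 0.10) or SE 2 days replicate 2 (0.30 and 0.14), and that of *Alox5* also with a pseudocount of 0.01 (0.052) and in a fit of the groups compared only (0.056). The lowest estimates of the list were −1.03 (*Ltc4s*) at 6 h and −0.56 (*Alox8*) at 2 days.

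**Figure D4:**
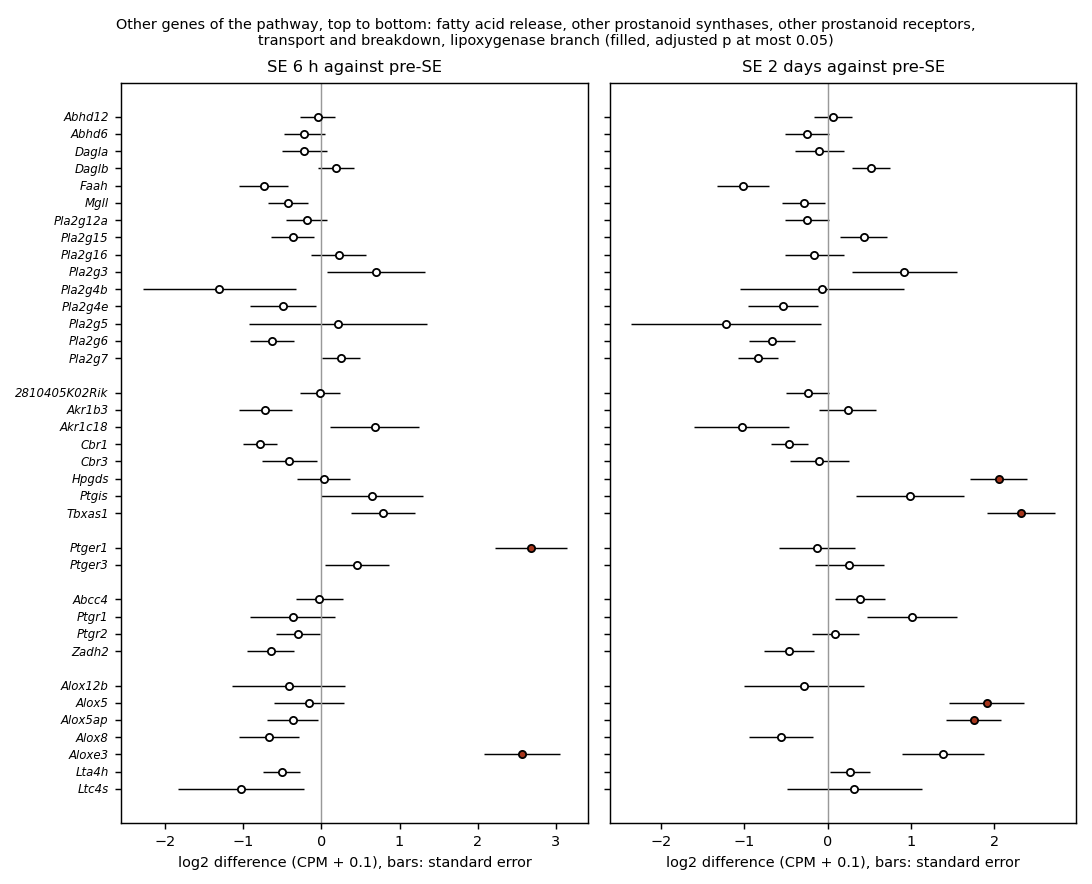
Difference of group means on the log2(CPM + 0.1) scale (horizontal axes, bars are standard errors) for the 36 other genes of the pathway in SE 6 h and SE 2 days against pre-SE, in 5 groups by role from top to bottom, filled where the adjusted p was at most 0.05. *Ptger1* and *Aloxe3* are called at 6 h, and *Hpgds*, *Tbxas1*, *Alox5* and *Alox5ap* at 2 days.

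For each of the 4 called genes, the genes with the most similar course were found by the root mean square difference of log2 change from the pre-SE mean over the 10 libraries. Nearest to *Ptgs2* were *Il6* (0.40), *Arc* (0.65) and *Pim1* (0.70), while *Ptgs2* itself changed by 2.70 on that measure. *Arc* had 58.15 and 107.6 CPM before SE, 2128.84 and 789.61 at 6 h after SE, 307.01 and 259.76 at 6 h with LEV, 339.32 and 860.96 at 2 days after SE, and 126.85 and 115.29 at 2 days with LEV, and in each of the 4 SE groups the mouse with more *Ptgs2* also had more *Arc*. *Il6* was listed at 0 in both pre-SE mice and had at most 2.34 CPM, so its likeness rests on the pseudocount of 0.1 CPM.

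Nearest to *Ptgs1* were *Slco4a1* (0.28), *Ccnd1* (0.29) and *Npy* (0.33), with 1.13 for *Ptgs1* itself. Nearest to *Hpgd* were *Aurka* (0.22), *Tacc3* (0.41) and *Fam111a* (0.42), with 1.84 for *Hpgd*. *Aurka* had 0.53 to 1.04 CPM in the 6 pre-SE and 6 h mice, 5.72 and 8.45 at 2 days after SE, and 8.48 and 1.81 at 2 days with LEV. Nearest to *Ptger4* were *Tnfrsf12a* (0.42), *Anxa2* (0.58) and an entry annotated as the small RNA *U6* (0.59), with 3.01 for *Ptger4*. *Tnfrsf12a* had 5.07 and 11.24 CPM before SE, 51.16 and 61.53 at 6 h after SE, 24.95 and 34.25 at 6 h with LEV, 117.02 and 229.88 at 2 days after SE, and 143.68 and 17.91 at 2 days with LEV. The 10 libraries share their scaling and the genes were picked out of the whole table for likeness, so these values are descriptions.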

How the data were processed

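CAGE libraries of hippocampi from 10 mice in 5 groups, as labelled, were compared. The table holds CPM values per gene and library as deposited: the authors aligned tags to mm9 (BWA 0.7.17, then HISAT2 2.0.5), built clusters with RECLU and kept those of at least 0.1 CPM. The step from clusters to genes is not given in the sources used here.

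A limma 3.58.1 model (R 4.3.3) with 5 group means and a mean-variance trend was fitted to log2(CPM + 0.1) of the 15851 genes reaching 0.1 CPM in 2 or more libraries. Its 9 comparisons were two-sided with Benjamini-Hochberg adjustment, and the steps were tested on simulated data. Genes were located with GENCODE M1 and start windows with RefSeq, in Python 3.11.15.

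The 9 genes were named throughout, other pathway genes where called or where highest or lowest of their list after SE, and the 3 most similar genes for each member called against pre-SE. The members, 5 pathway lists and 10 marker lists were chosen with earlier results of these data known. Replicates are separate mice, and the sources give no batch.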

Additional observations from a re-analysis of the deposited data

Results flagged for a closer look

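The SE effect differed between 6 h and 2 days, by limma's test of SE 2 days against SE 6 h, for 7 of the genes named. The SE effect at 2 days minus that at 6 h was 3.34 for *Hpgd* (adjusted p = 0.021) and 2.31 for *Ptgs1* (adjusted p = 0.031) on the log2 scale. It was 2.12 for *Alox5ap* (adjusted p = 0.0080), 2.07 for *Alox5* (adjusted p = 0.032) and 2.02 for *Hpgds* (adjusted p = 0.011). It was −2.81 for *Ptger1* (adjusted p = 0.0096), which had 0 tags in both SE 2 days mice, and −1.09 for *Pla2g7* (adjusted p = 0.037). For *Pla2g4a*, both SE + LEV 6 h mice were above both SE 6 h mice and both SE + LEV 2 days mice were below both SE 2 days mice. Both separations were near ties, the nearest LEV and SE mice having 2.49 and 2.47 CPM at 6 h and 4.16 and 4.2 CPM at 2 days. The LEV effect at 2 days minus that at 6 h was −0.78, with an unadjusted p of 0.21. Leaving out single mice of the compared groups ended the calls of *Hpgd* (any of the 4), *Ptger1* (any), *Alox5* (any), *Pla2g7* (any), *Ptgs1* (SE 6 h replicates 1 and 2 and SE 2 days replicate 2), *Hpgds* (SE 6 h replicate 1, SE 2 days replicates 1 and 2) and *Alox5ap* (SE 6 h replicate 1 and SE 2 days replicate 2), with adjusted p from 0.057 to 0.20.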

How the results depend on the processing

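Alternatives changed the pseudocount (0.01, 0.5 or 1), the filter (none, or 1 CPM), the scaling (median of ratios), the model (replicate block, no trend, or the groups compared alone) and the mice (each left out in turn). Among the results under these alternatives, 1209 kept direction and side of the threshold, 126 lost a call, 6 gained one and 25 changed sign. edgeR and DESeq2 on recovered tags were not run, because the recovery did not pass for all libraries.

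The number of the 9 genes called higher was 1 for SE 6 h against pre-SE and 2 in the fit of the groups compared only, with 0 to 2 over left-out mice. For SE 2 days against pre-SE it was 4, and 3 with a pseudocount of 0.5 or 1, with rescaling and in the fit of the groups compared only, and 2 without the trend and with the replicate block, with 0 to 4 over left-out mice. For SE 2 days against SE 6 h it was 2, and 1 with the replicate block, with 0 to 2 over left-out mice. For SE + LEV 2 days it was 0 against pre-SE and against SE + LEV 6 h, with 0 to 2 over left-out mice in each, the 2 being without SE + LEV 2 days replicate 2. The causes were not tested.

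Same-numbered mice deviated from their group means with correlations across genes of −0.44 to 0.34 between groups, so the numbers were not taken as pairs.

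Rescaling moved the *Ptgs2* logFC of SE 6 h against pre-SE from 3.80 to 3.93 and turned *Ptges2* in SE + LEV 6 h against SE 6 h to −0.02. Other changes of sign came from left-out mice, in genes without a call. In SE 6 h against pre-SE they ran from −0.27 to 0.56 for *Pla2g4a*, −0.42 to 0.07 for *Ptges2*, −0.49 to 0.01 for *Hpgd* and −0.51 to 0.10 for *Ptgs1*. In SE 2 days against SE 6 h they ran from −0.13 to 0.03 for *Ptges3*, −0.43 to 0.84 for *Ptgds*, −0.68 to 0.91 for *Ptgs2* and −0.05 to 1.44 for *Ptger4*. In SE + LEV 6 h against SE 6 h they ran from −0.36 to 0.43 for *Ptges2*, −0.38 to 0.63 for *Hpgd*, −0.12 to 0.49 for *Ptgs1* and −0.74 to 0.19 for *Ptges*. In SE + LEV 2 days against SE 2 days they ran from −0.34 to 0.06 for *Ptges2*, −0.26 to 0.16 for *Ptges3*, −0.65 to 0.13 for *Ptges*, −1.91 to 0.35 for *Hpgd* and −2.73 to 1.21 for *Ptger4*.

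Depth limits *Ptger4*, *Ptges*, *Pla2g4a* and *Ptger1* most, since their lowest libraries hold 13, 34, 31 and 0 tags.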

Other observations

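Marker lists of 10 cell types gave the setting of the prostaglandin genes. In SE 2 days against pre-SE, 3 of 5 listed monocyte and macrophage markers, 2 of 8 microglial and 2 of 7 astrocyte markers were called higher, with median logFC of 2.69, 0.84 and −0.22, and 0 markers were called lower. Of all genes tested, 5.07% were called higher and 0.593% lower in this comparison. Of endothelial (8), mural (5), meningeal and fibroblast (8), choroid plexus (5), neutrophil (2), oligodendrocyte (7) and neuronal (8) markers, 0 were called at 2 days, with median logFC of 0.82, 0.09, 0.64, −0.58, 1.09, −1.17 and −0.47. At 6 h, 2 of 8 microglial markers were called lower (0.202% of all genes), and 2 of 8 endothelial and 1 of 5 monocyte and macrophage markers higher (2.76%). Summed neuronal markers ran from 9146.5 to 10222.5 CPM in pre-SE mice and from 5056.6 to 9343.9 CPM in SE mice, and their part in the *Ptgs2* result was not tested.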
